A study of Mus musculus with 8 samples.

Results

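The genes examined encode the subunits of the mouse proteasome, taken as every row of the deposited expression table whose symbol is Psma, Psmb, Psmc or Psmd followed by a number, without the interferon-inducible Psmb8 and Psmb9. The rule used symbols only and no measured value. It found 37 of 24787 rows, of which 17 belong to the 20S core particle and 20 to the 19S cap. Of these, 35 passed the filter for testing, a value of at least 0.5 in at least 4 libraries: 15 core and 20 cap members. The other two are core subunits of particular tissues. Psma8, a testis subunit, was listed at 0 in every library, and Psmb11, a subunit of the thymic epithelium, did not exceed 0.0196.

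RNA was sequenced from 4T1 cells, an established mouse mammary carcinoma line grown in culture. In 4 libraries the cells carried a control shRNA (labelled WT for genotype; NT in the column names) and in 4 an shRNA against Etv5, an ETS family transcription factor (sh2 in the column names). Each group therefore has 1 construct name, and an effect of Etv5 loss cannot be told apart from any other effect of that construct. The labels name a pair of RNA extraction methods without saying which library had which, and do not say whether replicates were separate cultures. The p-values therefore set the difference between groups only against the spread among these samples, and that spread may be technical.

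The proteasome is the barrel-shaped protease that degrades proteins tagged with ubiquitin. The 20S core stacks rings of alpha subunits (Psma), which form the gate, around rings of beta subunits (Psmb), of which Psmb5, Psmb6 and Psmb7 carry the constitutive active sites. The 19S cap recognises, deubiquitinates, unfolds and feeds in the substrate: its base holds the ATPase ring (Psmc) and large scaffolds, and its lid holds the deubiquitinase Psmd14. The symbols Psmd5, Psmd9 and Psmd10 belong to chaperones that assist assembly of the base and do not stay in the finished particle. When proteasome capacity falls short, the transcription factor NFE2L1 raises many subunit genes together through antioxidant response elements.

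Because a transcription factor was targeted and the subunit genes are known to be regulated together, stretches of 100 bases before the RefSeq start are shown for 6 members named below (RefSeq, GRCm38.p6). They were searched on both strands for the ETS core CCGGAA, the antioxidant response element TGACNNNGC and the CCAAT box CCAAT, which do not overlap in these stretches. Capitals mark a match, which for a motif on the other strand appears as its reverse complement. Each is written 5′ to 3′ on the strand of the gene.
Psmb5, the catalytic subunit with chymotrypsin-like activity, chr14:54617996-54618095, minus strand, with an antioxidant response element: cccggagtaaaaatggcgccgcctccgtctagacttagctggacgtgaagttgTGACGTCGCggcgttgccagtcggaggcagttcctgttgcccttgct
Psmb6, the catalytic subunit with caspase-like activity, chr11:70525257-70525356, plus strand, with an antioxidant response element: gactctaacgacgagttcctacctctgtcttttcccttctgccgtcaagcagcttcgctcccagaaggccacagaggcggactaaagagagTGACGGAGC
Psmb3, a structural beta subunit, chr11:97703334-97703433, plus strand, with CCAAT boxes: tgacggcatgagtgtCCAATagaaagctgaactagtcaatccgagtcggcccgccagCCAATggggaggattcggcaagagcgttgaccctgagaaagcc
Psmc1, a base ATPase, chr12:100110102-100110201, plus strand, with an ETS core on the other strand: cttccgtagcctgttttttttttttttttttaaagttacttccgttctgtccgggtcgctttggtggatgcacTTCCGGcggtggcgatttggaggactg
Psmd10, a base assembly chaperone, chrX:140956712-140956811, minus strand, with an ETS core and CCAAT boxes on the other strand: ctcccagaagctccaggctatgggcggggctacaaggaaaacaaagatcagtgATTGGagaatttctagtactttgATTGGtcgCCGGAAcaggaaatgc
Psmd1, a base scaffold, chr1:86064519-86064618, plus strand, without any of the motifs: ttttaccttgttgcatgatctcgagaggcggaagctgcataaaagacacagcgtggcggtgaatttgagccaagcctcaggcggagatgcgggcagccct

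In the longer promoter window (250 bases before to 50 after the RefSeq start), 29 of the 35 tested members had an entry. The ETS core was in 15 of these 29 (51.7%), 4 of 12 core and 11 of 17 cap members, against 33.7% of the 8977 tested genes with an entry and 14.9% of all 32851 promoters. The antioxidant response element was in 5 of 29 (17.2%), against 17.2% of the tested genes and 12.4% of all promoters. The CCAAT box was in 11 of 29 (37.9%), against 43.6% and 37.4%. A match is a description of letters and not a binding site. For Psmd1 the GENCODE gene begins upstream of the RefSeq start, so all 100 bases shown lie inside its annotated gene. The last 48 bases shown for Psmc1, 35 for Psmb3, 27 for Psmb5 and 17 for Psmd10 also lie inside the annotated gene. The ETS cores shown for Psmc1 and Psmd10 are in those parts.

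Etv5, the targeted gene, stood at 15.2, 15.1, 11.7 and 14.4 in control replicates 1 to 4 and at 13.0, 11.2, 7.52 and 12.7 in Etv5 shRNA replicates 1 to 4. The groups overlapped, since control replicate 3 lay within the Etv5 shRNA values (exact two-sided permutation p = 0.0857, where the smallest possible with 4 against 4 is 0.0286). By limma the log2 fold change of Etv5 was -0.33 with all 8 libraries (adjusted p = 0.82). Without Etv5 shRNA replicate 3, its lowest library, it was -0.17 (adjusted p = 0.42). The levels given here and below are a depth-scaled mean coverage per base of each gene, a scale on which genes can be compared per length. Of 7 epithelial markers, Krt18 averaged 668, Krt8 408, Epcam 103, Cdh1 38.5, Krt19 21.7 and Krt14 11.2 in controls, and Krt5 was near 0. Cdh1 was called higher with 7 libraries (log2 fold change 0.71, adjusted p = 0.00449). Krt14 was higher without overlap in all 8 libraries, as were 1.52% of tested genes. It was not called with 8 or 7 libraries and was called higher with 6 (0.47, limma adjusted p = 0.0236). The summed level of 8 leukocyte markers ranged over 2.99 to 4.58 in controls and over 2.93 to 3.33 with the Etv5 shRNA, with Cd3e and Adgre1 at 0 everywhere and most of the sum from Cd68. That of 4 fibroblast markers ranged over 2.71 to 3.596 and 0.641 to 2.55, with Dcn at 0 and nearly all of it from Pdgfra in controls, which was called lower with 7 libraries (-0.50, adjusted p = 0.0446) and with 6 (-0.58). The sum of the 7 epithelial markers ranged over 1097 to 1504 and 1082 to 2606. The part of these markers in the results was not tested. In bulk RNA, fewer cells with a transcript and less of it per cell cannot be told apart. Etv5 shRNA replicate 3 stood apart: it listed 13920 genes above 0, against 15126 to 15379 in the other libraries, and ribosomal protein genes held 21.7% of its summed signal, against 7.85% to 11.9%. In this library genes with short transcripts were high and genes with long transcripts low. Deviation was taken from each gene's median over all 8 libraries (log2). Its median was 0.33 in the shortest of 4 equal bins of genes and -1.04 in the longest. Control replicate 3 deviated the same way, by 0.24 and -0.28. Results are therefore given for all 8 libraries, for 7 without Etv5 shRNA replicate 3, and for 6 without replicate 3 of either group.

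The proteasome was abundantly expressed in these cells. In controls the mean level of the 14 constitutive core members (Psma1 to Psma7 and Psmb1 to Psmb7) ran from 9.85 for Psma3 to 157 for Psmb4, with a median of 68.5. The 17 cap members without the chaperones ran from 26.9 for Psmd11 to 95.9 for Psmc1, with a median of 55.2. The median tested gene stood at 8.51. RNA levels of core members thus spanned a wider range than those of cap members.

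**Figure D1:**
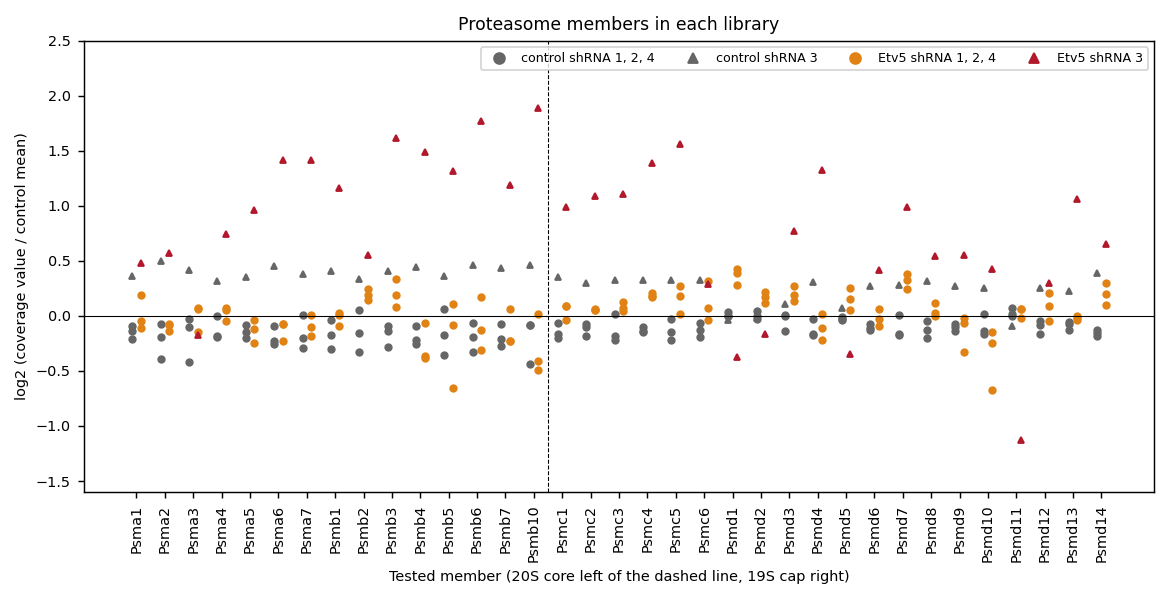
Level of each of the 35 tested proteasome members in each library, as the log2 ratio to that gene's mean in the control group (vertical axis; 1 point per library, triangles for replicate 3), with core members to the left of the dashed line and cap members to the right. Etv5 shRNA replicate 3 lies above all other libraries in 14 core and 15 cap members and below them in Psmd1, Psmd2, Psmd5 and Psmd11.

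With all 8 libraries most fitted fold changes leaned upward, and none passed the test. No member was called at an adjusted p under 0.05 in either direction (limma, Benjamini-Hochberg over all tested genes), where 0.00852% of the 11731 tested genes were called higher and 0.486% lower. The smallest adjusted p was 0.621, for the lid subunit Psmd7, which alone had an unadjusted p under 0.05. The log2 fold change was above 0 in 32 of 35 members, with a median of 0.23 for core and 0.22 for cap members against -0.11 for all tested genes. Non-overlapping groups were seen in 1 member, the lid subunit Psmd3, which was higher, where 1.52% of all tested genes were higher and 7.58% lower without overlap. Without Etv5 shRNA replicate 3 the core median was below 0 and the cap median above it. Etv5 shRNA replicate 3 was the highest of the 8 libraries in 14 of 15 core and 15 of 20 cap members.

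That library stood further above its group in core than in cap members. Relative to the mean of the other 3 Etv5 shRNA libraries, its core members stood at a median of 2.48 times, from 0.890 for Psma3 to 4.49 for Psmb10. Its cap members stood at a median of 1.54 times, from 0.447 for Psmd11 to 2.69 for the ubiquitin receptor Psmd4. It was the lowest of the 8 libraries for 4 cap members: the base scaffolds Psmd1 and Psmd2, the chaperone Psmd5 and the lid subunit Psmd11. Control replicate 3 was the highest control in 15 of 15 core and 17 of 20 cap members, at a median of 1.49 and 1.31 times the mean of the other controls. Core genes have shorter transcripts, with a median longest transcript of 1239 bases against 1986 for cap genes and 3262 for all tested genes. Across the 35 members, the deviation of Etv5 shRNA replicate 3 and transcript length had a Spearman rho of -0.52 and a Pearson r of -0.57, a description of genes measured in 1 library. With the trend on transcript length removed from every library, the median log2 fold change with 8 libraries was 0.20 for core and 0.29 for cap members, and no member was called.

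**Figure D2:**
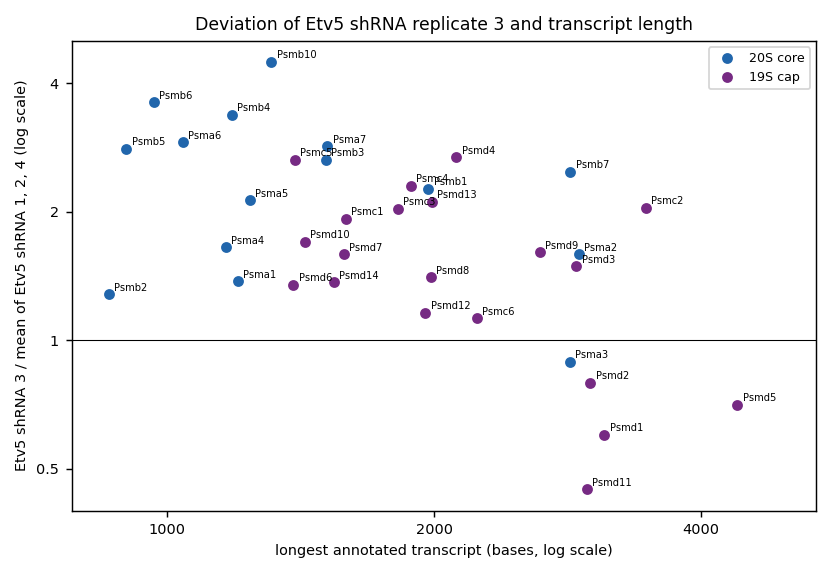
Level in Etv5 shRNA replicate 3 divided by the mean of the other 3 Etv5 shRNA libraries (vertical log axis) against the longest annotated transcript of each of the 35 tested members (bases, log axis), coloured by core and cap. Members with transcripts under 2000 bases all lie above 1, and Psmd11, the lowest point, stood at 0.447 times the other libraries.

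The mean level of each subcomplex shows the same difference in degree. The mean level of the 14 core members was 60.3, 69.0, 95.2 and 61.8 in control replicates 1 to 4 and 66.5, 67.2, 166 and 73.3 in Etv5 shRNA replicates 1 to 4. The mean of the 17 cap members was 51.7, 55.4, 68.0 and 53.3 in controls and 62.3, 61.1, 100 and 62.2 with the Etv5 shRNA. Replicate 3 was the highest library of each group in both. The ratio of core to cap was 1.17, 1.25, 1.40 and 1.16 in controls and 1.07, 1.10, 1.66 and 1.18 with the Etv5 shRNA, so the groups overlapped. The mean ratio was 1.24 ± 0.111 (SD, n = 4) in controls and 1.12 ± 0.0573 (SD, n = 3) with the Etv5 shRNA without replicate 3, and 1.25 ± 0.274 (SD, n = 4) with it. The control mean keeps control replicate 3, the highest control at 1.40, so the 1.24 and the 1.12 rest on unlike sets of replicates. These means over members are a description and were not tested.

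**Figure D3:**
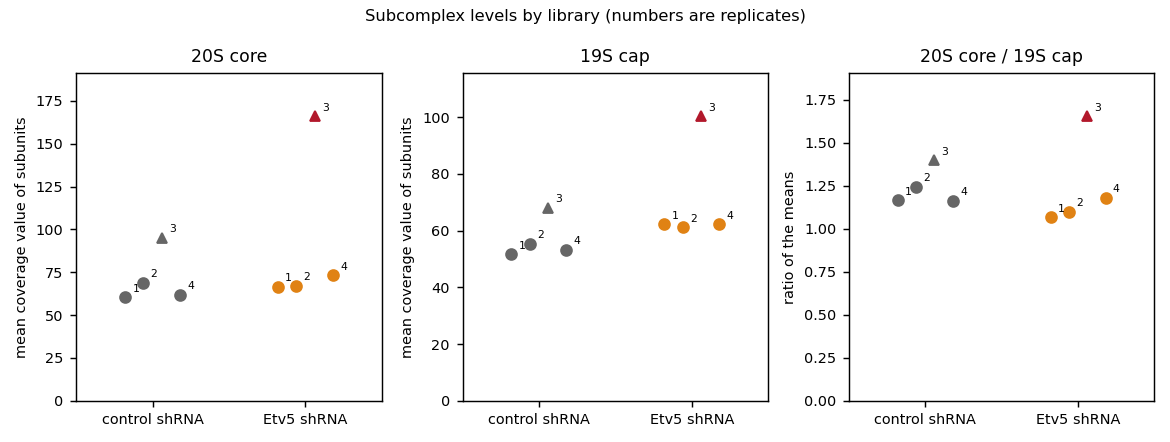
Mean level of the 14 core and 17 cap members (depth-scaled coverage per base) and their ratio in each library (1 numbered point per library, triangles for replicate 3). Replicate 3 is highest in both groups; among the other libraries the cap mean does not exceed 55.4 in any control and is at least 61.1 in each Etv5 shRNA library, while the core means overlap.

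Without Etv5 shRNA replicate 3, the cap leaned upward and the core did not, and 1 member, the base scaffold Psmd1, was higher. It was the only one of 35 called, where 1.09% of the 11685 tested genes were called higher and 2.06% lower, so the share of members called is near the background. Of the core members 6 had a log2 fold change above 0 and 9 below (median -0.06). Of the cap members 15 were above 0 and 5 below (median 0.09), against a median of -0.0022 for all tested genes. Groups did not overlap in 3 members, all cap and all higher with the Etv5 shRNA (Psmd1, Psmd2 and Psmd3), where 9.78% of tested genes were higher and 10.5% lower without overlap. The difference between core and cap was not tested.

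Without replicate 3 of both groups, 3 libraries against 3, more members were called, all higher. They were the core subunit Psmb3 and the cap members Psmc4, Psmd1, Psmd7 and Psmd14, 5 of 35, where 3.59% of the 11591 tested genes were called higher and 5.25% lower. Groups did not overlap, in the higher direction, in 14 of 20 cap members, including all 6 ATPases, and in 2 of 15 core members (Psmb2 and Psmb3), where 15.0% of all tested genes did so; 0 members were lower without overlap, where 16.3% of all tested genes were. The median log2 fold change was 0.10 for core and 0.17 for cap members, against -0.01 for all tested genes. Leaving out control replicate 3 as well thus moved the count of called members from 1 to 5. That library was the highest control in 15 of 15 core and 17 of 20 cap members. Leaving it out lowers the control mean of these members, so their fold changes move up by the exclusion itself.

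**Figure D4:**
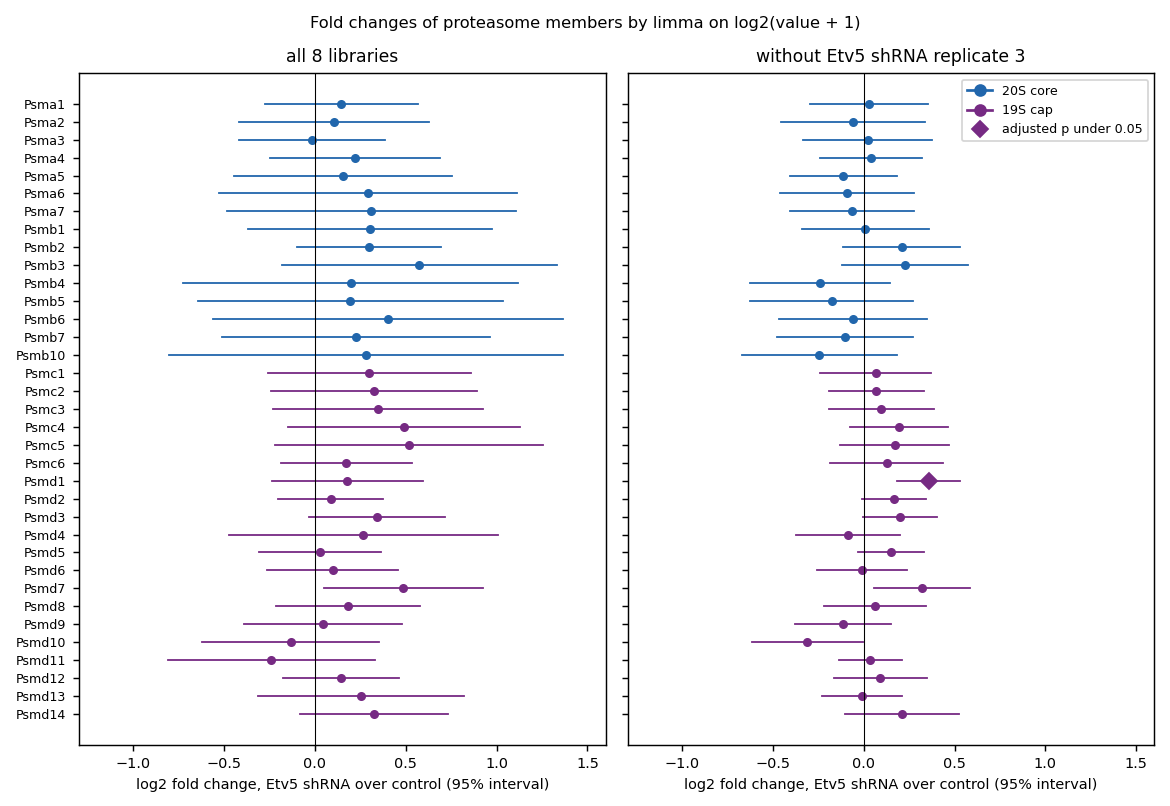
Log2 fold change (Etv5 shRNA over control, on log2 of value plus 1) of each tested member, with all 8 libraries (left) and without Etv5 shRNA replicate 3 (right); bars are 95% intervals and a diamond marks an adjusted p under 0.05. No member was called on the left and Psmd1 alone on the right, where most core points lie below 0 and most cap points above it.

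Alpha subunits, which form the outer rings and the gate, did not pass the test in any of these 3 comparisons. In the 7-library comparison 3 of 7 had a log2 fold change above 0. Psma4 had the highest log2 fold change of the family, with levels of 53.6, 60.9, 75.8 and 53.5 in controls and 63.3, 64.2, 102 and 58.9 with the Etv5 shRNA. Outside Etv5 shRNA replicate 3 the groups overlapped, and the log2 fold change was 0.04 (SE 0.13, adjusted p = 0.890). Psma5 had the lowest, with 28.1, 30.5, 41.2 and 29.1 in controls and 27.2, 31.4, 62.6 and 29.7 with the Etv5 shRNA, which overlap (log2 fold change -0.11, SE 0.13, adjusted p = 0.677). Part of the sequence of these genes is shared with other annotated transcripts, among them pseudogenes. This holds for 31.5% of the 50-base windows of Psma4 and 55.4% of those of Psma5, so their values are uncertain.

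The catalytic beta subunits also gave no call. Psmb5, the chymotrypsin-like site and the main target of proteasome inhibitors, stood at 26.5, 31.3, 38.6 and 23.3 in controls and at 28.3, 19.03, 74.4 and 32.3 with the Etv5 shRNA. Psmb6, the caspase-like site, stood at 38.2, 45.7, 65.8 and 41.9 in controls and at 43.8, 38.6, 164 and 53.8 with the Etv5 shRNA. Psmb7, the trypsin-like site, stood at 78.9, 86.6, 123 and 75.1 in controls and at 77.7, 77.4, 207 and 95.1 with the Etv5 shRNA. In each of them Etv5 shRNA replicate 3 was far above all other libraries, and the remaining libraries of both groups overlapped. With all 8 libraries their log2 fold changes were 0.20, 0.40 and 0.23. Without that replicate they were -0.18 (SE 0.20), -0.06 (SE 0.18) and -0.10 (SE 0.17). With 6 libraries, without replicate 3 of either group, they were -0.05, 0.10 and 0.05. The direction thus depended on which replicates 3 were left out. Psmb5 shares 57.1% of its 50-base windows with other annotated transcripts.

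Psmb10, which replaces Psmb7 in the immunoproteasome, had the highest ratio of that library to its group among the members. It stood at 16.3, 16.2, 23.7 and 12.7 in controls and at 13.0, 12.2, 63.8 and 17.5 with the Etv5 shRNA. The groups overlapped, and the log2 fold change was 0.28 with 8 libraries and -0.24 with 7 (SE 0.19, adjusted p = 0.520). The excluded immunoproteasome subunits give a context for it. Psmb8, which replaces Psmb5, was 22.6, 22.9, 34.7 and 19.4 in controls and 14.8, 16.1, 52.1 and 18.4 with the Etv5 shRNA. Without Etv5 shRNA replicate 3 the Psmb8 groups did not overlap, with a log2 fold change of -0.54 (SE 0.17) that missed the threshold (adjusted p = 0.130). With 6 libraries Psmb8 was called lower, at -0.38 (adjusted p = 0.0393). Psmb9, which replaces Psmb6, had a log2 fold change of -0.21 with 7 libraries (adjusted p = 0.590).

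Among the structural beta subunits Psmb3 had the highest fold change. Psmb3 (chr11:97703399-97713500, mm10, plus strand) stood at 67.4, 76.7, 109 and 74.5 in controls and at 93.3, 86.6, 250 and 103 with the Etv5 shRNA. Control replicate 3 lay above every Etv5 shRNA library other than replicate 3, and the other 3 controls lay below all of them. The log2 fold change was 0.57 with 8 libraries (adjusted p = 0.837), 0.23 with 7 (SE 0.15, adjusted p = 0.465) and 0.37 with 6 (adjusted p = 0.0285). Of its 50-base windows 10.1% occur in another annotated transcript.

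All 6 ATPases of the base had log2 fold changes above 0 in each comparison, and 1 passed the test in 1 of them. Psmc4 (chr7:28041707-28050101, mm10, minus strand), an ATPase of the ring that unfolds substrates, stood at 41.1, 42.3, 56.7 and 41.2 in controls and at 52.2, 51.0, 118 and 51.4 with the Etv5 shRNA. Leaving aside replicates 3, each group was tight and the Etv5 shRNA libraries were the higher, while control replicate 3 lay above them. Its log2 fold change was 0.49 with 8 libraries (adjusted p = 0.831), 0.19 with 7 (SE 0.12, adjusted p = 0.416) and 0.31 with 6 (adjusted p = 0.0169). Psmc1, which also opens the core gate, had the lowest fold change of the ATPases with 7 libraries. It stood at 85.6, 91.6, 123 and 83.7 in controls and at 102, 93.4, 191 and 102 with the Etv5 shRNA (log2 fold change 0.07, SE 0.14, adjusted p = 0.826).

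Psmd1, the base scaffold that holds the lid and a ubiquitin receptor in place, was the member called with 7 libraries. Psmd1 (chr1:86064387-86139151, mm10, plus strand) stood at 42.1, 42.1, 40.9 and 43.0 in controls, the tightest of the named members, and at 55.1, 56.3, 32.5 and 51.0 with the Etv5 shRNA. Replicate 3 of the Etv5 shRNA was below every control and the other 3 were above every control. Without it the mean was 54.1 ± 2.82 (SD, n = 3) against 42.0 ± 0.834 (SD, n = 4), 1.29-fold, and the log2 fold change was 0.36 (SE 0.08, 95% interval 0.18 to 0.53, adjusted p = 0.0418). With all 8 libraries it was 0.18 (adjusted p = 0.879). The adjusted p with 7 libraries lies just under the threshold, and leaving out any 1 further library other than control replicate 3 raised it to between 0.0666 and 0.221. Scaling to equal sums gave 0.0908 and quantile normalisation 0.0683. The log2 fold change itself stayed between 0.33 and 0.40 over the left-out libraries, and was 0.41 with equal sums and 0.35 with quantile normalisation. The gene Gm21972 overlaps 9.67% of the exon bases of Psmd1 on the same strand, so reads of the pair cannot be told apart there.

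**Figure D5:**
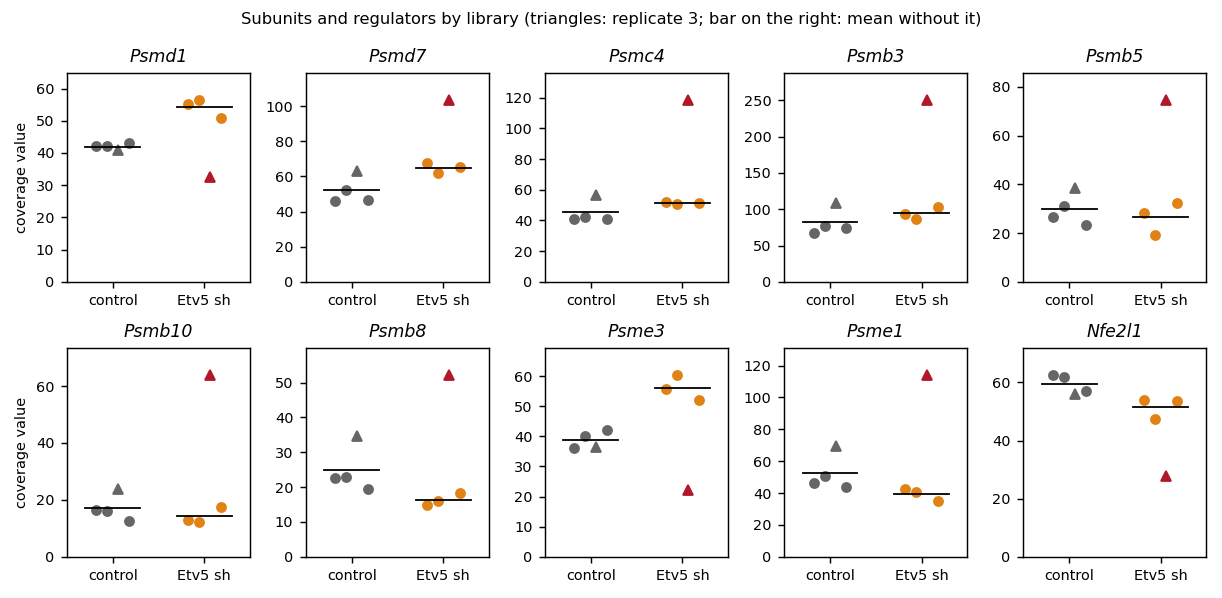
Level of Psmd1, Psmd7, Psmc4, Psmb3, Psmb5 and Psmb10, and of the related Psmb8, Psme3, Psme1 and Nfe2l1 (depth-scaled coverage per base) in each library, with triangles for replicate 3; bars are the mean of the 4 controls and of the other 3 Etv5 shRNA libraries. In Psmd1 and Psme3 the other 3 Etv5 shRNA libraries lie above all controls while replicate 3 lies below them; in Psmb5 the groups overlap.

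Psmd2, the other large base scaffold and a docking site for ubiquitin shuttles, had a like pattern; it and Psmd4 were picked out after their values were seen. It stood at 78.7, 77.6, 78.1 and 81.5 in controls and at 89.0, 85.7, 70.5 and 92.0 with the Etv5 shRNA, so that replicate 3 was below and the other 3 above every control. It was called in none of the comparisons, with an adjusted p of 0.163 with 6 libraries. Psmd4, the ubiquitin receptor of the base, stood at 67.6, 74.1, 93.9 and 67.1 in controls and at 70.1, 65.2, 190 and 76.8 with the Etv5 shRNA, which overlapped.

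Of the 8 lid subunits 6 had a log2 fold change above 0 with 7 libraries, and all 8 with 6; those named here were picked out after their values were seen. Psmd3 was the only member without overlap in all 8 libraries, at 65.0, 71.6, 77.1 and 72.1 in controls and at 81.6, 78.5, 122 and 86.2 with the Etv5 shRNA. Psmd7, the inactive partner of the lid deubiquitinase (chr8:107580381-107588464, mm10, minus strand), stood at 46.1, 52.4, 63.3 and 46.6 in controls and at 67.8, 61.7, 103 and 65.2 with the Etv5 shRNA. The groups overlapped only through control replicate 3 and Etv5 shRNA replicate 2. Its log2 fold change was 0.49 with 8 libraries, 0.32 with 7 (SE 0.12, adjusted p = 0.178) and 0.42 with 6 (adjusted p = 0.0107). Psmd14, the deubiquitinase itself (chr2:61711694-61800376, mm10, plus strand), stood at 41.4, 43.1, 61.6 and 42.4 in controls and at 54.0, 57.8, 73.9 and 50.5 with the Etv5 shRNA. Again control replicate 3 lay among the Etv5 shRNA libraries, and the log2 fold change was 0.21 with 7 libraries (adjusted p = 0.445) and 0.35 with 6 (adjusted p = 0.0179). Psmd11, which joins the lid to the core, stood at 28.2, 26.9, 25.3 and 27.1 in controls and at 28.1, 26.5, 12.3 and 28.1 with the Etv5 shRNA. Outside replicate 3 its values overlapped between the groups.

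None of the 3 base assembly chaperones passed the test with 8, 7 or 6 libraries. With 7 libraries the log2 fold change was 0.15 for Psmd5 (adjusted p = 0.361) and -0.11 for Psmd9 (adjusted p = 0.633). Psmd5 stood at 26.1, 25.8, 27.6 and 25.6 in controls and at 29.3, 31.2, 20.6 and 27.2 with the Etv5 shRNA, without overlap once both replicates 3 were left out. Psmd10, also known as the oncoprotein gankyrin, stood at 8.92, 10.1, 11.9 and 9.09 in controls and at 6.25, 9.04, 13.4 and 8.43 with the Etv5 shRNA. The groups overlapped, with a log2 fold change of -0.31 (SE 0.14, adjusted p = 0.261), the lowest of all members with 7 libraries.

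Several members share sequence with other transcripts. In 12 of the 35, at least 5% of 50-base windows or of exon bases are shared with or overlapped by another annotated gene, and the strand setting of the authors' counting is not given in the sources used here. Without these 12, the median log2 fold change with 7 libraries was -0.06 over 10 core members and 0.13 over 13 cap members, against -0.06 and 0.09 over all tested core and cap members.

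Of the genes that act around the proteasome, the activators form alternative caps. Among 5 genes, 4 activators and the inhibitor Psmf1, 1 was called higher with 7 libraries, where 1.09% of all tested genes were called higher and 2.06% lower, and none with 8. Psme3 (REG gamma), a nuclear activator that lets the core degrade proteins without ubiquitin, stood at 36.0, 40.3, 36.5 and 42.0 in controls and at 55.6, 60.2, 22.1 and 52.2 with the Etv5 shRNA. As in Psmd1, replicate 3 lay below every control and the other 3 lay above every control. The mean was 56.0 ± 4.06 (SD, n = 3) against 38.7 ± 2.92 (SD, n = 4), with a log2 fold change of 0.52 (SE 0.09, adjusted p = 0.0183). With 8 libraries it was 0.20 (adjusted p = 0.887). With 7 libraries the interferon-inducible activators had values below 0, at -0.39 for Psme1 (adjusted p = 0.211) and -0.29 for Psme2 (adjusted p = 0.499). Psme1 was lower without overlap. Of all tested genes, 9.78% were higher and 10.5% lower without overlap. Psme4, an activator found on chromatin, had a log2 fold change of 0.39 (adjusted p = 0.140).

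The following other lists gave no call with 7 libraries: 0 of 8 assembly chaperones (median log2 fold change -0.08), 0 of 11 ubiquitin receptors and deubiquitinases (0.15), and 0 of 8 transcription factors and their processing enzymes (-0.12). Nfe2l1, the factor that raises subunit genes when proteasome capacity is short, stood at 62.4, 62.0, 56.0 and 57.1 in controls and at 53.8, 47.5, 27.8 and 53.6 with the Etv5 shRNA. All Etv5 shRNA libraries lay below all controls, as in 7.58% of all tested genes with 8 libraries. The log2 fold change was -0.41 with 8 libraries (limma adjusted p = 0.790) and -0.20 with 7 (adjusted p = 0.265). Nfe2l2, a related factor, had -0.07 (adjusted p = 0.649), and Pomp, which the core needs to mature, had -0.07 (adjusted p = 0.863). With 6 libraries Psmg1, a core assembly chaperone, was called higher at 0.34 (adjusted p = 0.0393), as was Uchl5, a deubiquitinase of the cap, at 0.27 (adjusted p = 0.0393).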

How the data were processed

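RNA of 8 libraries of 4T1 cells was analysed, 4 per group by the sample titles. Libraries came from a TruSeq RNA kit and a NovaSeq sequencer, per the labels' protocols. The submitters' processing notes name STAR 2.7.10a and mm10. The deposited signal is, from its values, mean coverage per base of each gene scaled to library depth. The counting program is not given in the sources used here, read counts are not held and the read depth is unknown. Values summed to between 254792 and 390495 per library. Here they were taken as log2(value + 1), so fold changes of low genes are understated. The test, limma 3.58.1 under R 4.3.3 (trended prior variance, no covariate), used genes reaching 0.5 in 4 or more libraries, with Benjamini-Hochberg adjustment over all tested genes and a threshold of 0.05. Etv5 was also tested by exact permutation. The script was tested on simulated data. Lengths, positions, shared windows and overlaps came from GENCODE mouse M21, matched for 97.76% of rows. Members and gene lists were chosen with earlier results of these data known. Named members were the catalytic beta subunits, Psmb10, any called member, and the highest and lowest fold change of each symbol family with 7 libraries; others are said to be picked later. Alternatives covered scaling, filters, pseudocount, library weights, transcript length, a replicate block and each library left out.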

Additional observations from a re-analysis of the deposited data

Results flagged for a closer look

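Of 30 groups of 4 libraries screened, 12 held a library whose gap to its nearest neighbour exceeded Dixon's 95% critical value for the share of the group's range; chance flags about 1 in 20, or 1.5 groups. In 11 of them the library was Etv5 shRNA replicate 3 and its value was high: 102 for Psma4, 62.6 for Psma5, 63.8 for Psmb10, 250 for Psmb3, 164 for Psmb6, 207 for Psmb7, 191 for Psmc1, 118 for Psmc4, 166 for the mean of the core members, 100.4 for the mean of the cap members, and 1.06% for the share of the summed signal held by proteasome members. In the remaining one it was control replicate 3, at 56.7 for Psmc4. These groups share libraries, so the flags are not independent of each other.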

How the results depend on the processing

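With 8 libraries, 0 members were called higher; array quality weights gave 10 higher and 1 lower (Psmd10), in a weight fit that stopped before convergence and that called 1513 of all genes higher and 1670 lower, and leaving out each library gave 0 to 1. With 7 libraries, 1 member was higher; 0 were with equal sums, with quantile scaling and with the replicate block, 3 were with the transcript-length trend removed (Psmb2, Psmd1 and Psmd7; all genes 437 higher and 516 lower), and leaving out each further library gave 0 to 5, with 5 only without control replicate 3. The cause was not tested. With 8 libraries the weights turned Psma5 to -0.10, Psmb10 to -0.22, Psmb5 to -0.012 and Psmb7 to -0.059 (log2), and median-of-ratios scaling turned Psmd10 to 0.034. Leaving out a library with 8 gave -0.11 to 0.28 for Psma5, -0.24 to 0.52 for Psmb10, -0.18 to 0.46 for Psmb5, -0.057 to 0.63 for Psmb6, -0.10 to 0.38 for Psmb7 and -0.31 to 0.021 for Psmd10. With 7 libraries the length correction turned Psmb6 to 0.069, and the block turned Psma5 to 0.0078, Psmb6 to 0.10 and Psmb7 to 0.052. Leaving out a further library gave -0.017 to 0.15 for Psma4, -0.17 to 0.0078 for Psma5, -0.33 to 0.037 for Psmb5, -0.18 to 0.10 for Psmb6 and -0.20 to 0.052 for Psmb7. Median-of-ratios scaling moved the median of all genes with 8 libraries from -0.11 to 0.02, and those of core and cap members to 0.40 and 0.39. With 7 libraries the cap median was above 0 in every setting run (0.05 to 0.17). The core median was below 0 except with the length trend removed (0.03), with the block (0.10) and without control replicate 3 (0.10). In the block fit with 7 libraries, control replicate 3 has no partner and does not enter the fold changes. The fold changes of the block therefore equal those without control replicate 3 and are not a separate result. The labels do not tie the replicate numbers to a shared batch. Deviations of same-numbered libraries correlated at 0.55, 0.092, 0.79 and 0.51 with 8 libraries, so 1 pair missed the limit set for pairing, and at 0.19, -0.018 and -0.44 with 7. Control replicates 1 and 3 correlated best with their own number with 8 libraries, and replicates 2 and 4 did not. The replicate block gave Psmd1 a log2 fold change of 0.35 with 7 libraries (limma adjusted p = 0.0787). Read depth is unknown, and n limits the precision.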

Other observations

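Other large multi-subunit complexes give a scale for the lean of the cap. Among 8 genes of the CCT chaperonin, which folds actin and tubulin, 0 were called with 7 libraries (median log2 fold change 0.11), and 3 were called higher with 6 (median 0.21), where 6 of 8 were higher without overlap between groups. Over all tested genes with 6 libraries, 3.59% were called higher and 15.0% were higher and 16.3% lower without overlap. Among 9 genes of the COP9 signalosome, a complex related to the lid, 0 were called with 7 libraries (median 0.04) or with 6 (median 0.12), where 5 of 9 were higher without overlap. Among 13 genes of the initiation factor eIF3, also related to the lid, 0 were called with 7 libraries (median -0.02) or with 6 (median 0.10), where 3 were higher and 2 lower without overlap. No difference between these lists and the proteasome was tested.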
